A study of Mus musculus with 8 samples.

Results

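The DNA replication machinery was followed here through 45 genes, chosen by name for their part in copying DNA: the origin recognition complex (6 genes), helicase loading and its inhibitor (3), the MCM2-7 helicase (6), helicase activation (8), DNA polymerases and primase (9), the sliding clamp and its loader (6), single-strand binding (2), Okazaki fragment maturation (2) and deoxynucleotide supply (3). All 45 were among the 48440 genes of the deposited count table, and all 45 were among the 17739 genes with enough counts to be tested. Messenger RNA was taken from embryonic stem cells of the mouse (129/Ola background), grown without feeder cells on gelatin in medium with serum. All groups shared that medium and a treatment time of 72 hours. The 4 groups were the parental line (CTNNB1+/+) with the vehicle DMSO at 0.3 μl/ml, the same line with CHIR99021 at 3 μM, a β-catenin knock-out line (CTNNB1-/-) with DMSO and that line with CHIR99021, with 2 libraries each. CHIR99021 inhibits the kinase GSK3, which marks β-catenin, the effector of Wnt signalling, for destruction. The labels name 1 parental line and 1 knock-out line, so β-catenin and anything else that sets the lines apart cannot be told apart. Separate cultures are not named for the replicates, and the spread behind each p-value is that of these libraries alone and may be technical.

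Replication starts at origins, where the origin recognition complex together with Cdc6 and Cdt1 loads the ring of Mcm2 to Mcm7 onto DNA, a step called licensing. At the start of S phase the kinase Cdc7 with its partner Dbf4 turns the loaded ring into an active helicase with Cdc45 and the GINS complex, primase and polymerase α lay down primers, and polymerases δ and ε copy the strands, held by the PCNA clamp. Embryonic stem cells spend much of their cycle in S phase, and many of these genes are known targets of E2F transcription factors.

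Promoter sequence was available for 37 of the 45 genes, as windows from 250 bases before to 50 bases after the start in RefSeq (GRCm38.p6). Gins1, Gins2, Gins4, Gmnn, Mcm4, Pole, Prim2 and Rfc2 had no matched window. The windows were searched on both strands for letters of the E2F site (a first form TTTCGCGC, a second form TTTGGCGC and a short form TTCCCGC), for the CCAAT box (CCAAT) and for the site of TCF/LEF, the DNA-binding partners of β-catenin (CTTTGAA or CTTTGAT). Of the 37 genes, 21 held at least 1 E2F form (56.8%), against 5.33% of all 32851 windows of the table. The longer forms, TTTCGCGC or TTTGGCGC, were in the windows of 10 genes (27.0%) against 0.813% of all windows. CCAAT was found in 21 genes (56.8%) against 37.4% of all windows, and a TCF/LEF form in 1 gene, Cdc7 (2.70%), against 8.65%. A match is a run of letters and was not tested as a binding site.

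The stretches of 6 genes that carry the main patterns below are shown 5′ to 3′ on the gene's strand, with matches in capitals. Each begins 250 bases before the RefSeq start. It ends at that start, or before an annotated protein-coding start that comes earlier. The searched windows run further. With that part, Mcm7 also holds the first E2F form, and Mcm5, Mcm7 and Pold2 hold 3 CCAAT boxes each. The stretch of Mcm7 lies within its annotated gene, whose upstream end is at 138172422. That of Rpa2 runs just past its annotated gene start at 132768332. Mcm5 and Mcm6 each hold the first and second E2F forms overlapping on opposite strands, Mcm7 and Rpa2 hold the short form on the opposite strand, and all 4 hold CCAAT boxes as well. Pold2 holds a CCAAT box and no E2F form, and Dbf4 holds none of the letters searched. They lie at chr8:75109259-75109508 (plus strand) for Mcm5, chr1:128359706-128359955 (minus) for Mcm6, chr5:138171884-138172133 (minus) for Mcm7, chr11:5878293-5878506 (minus) for Pold2, chr4:132768110-132768334 (plus) for Rpa2 and chr5:8422717-8422966 (minus) for Dbf4.
Mcm5: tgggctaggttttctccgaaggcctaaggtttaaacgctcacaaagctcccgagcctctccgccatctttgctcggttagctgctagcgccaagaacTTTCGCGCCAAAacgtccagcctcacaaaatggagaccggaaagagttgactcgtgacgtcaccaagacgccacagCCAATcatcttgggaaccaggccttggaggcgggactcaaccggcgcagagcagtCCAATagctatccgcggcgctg
Mcm6: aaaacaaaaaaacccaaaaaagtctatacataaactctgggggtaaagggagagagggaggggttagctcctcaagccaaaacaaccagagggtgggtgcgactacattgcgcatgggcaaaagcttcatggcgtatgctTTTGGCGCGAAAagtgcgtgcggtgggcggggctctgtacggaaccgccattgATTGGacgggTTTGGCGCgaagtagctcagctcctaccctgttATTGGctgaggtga
Mcm7: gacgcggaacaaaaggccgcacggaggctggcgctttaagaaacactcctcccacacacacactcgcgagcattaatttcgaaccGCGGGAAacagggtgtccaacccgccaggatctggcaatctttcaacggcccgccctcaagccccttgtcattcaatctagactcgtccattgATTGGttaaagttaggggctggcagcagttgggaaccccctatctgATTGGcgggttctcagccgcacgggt
Pold2: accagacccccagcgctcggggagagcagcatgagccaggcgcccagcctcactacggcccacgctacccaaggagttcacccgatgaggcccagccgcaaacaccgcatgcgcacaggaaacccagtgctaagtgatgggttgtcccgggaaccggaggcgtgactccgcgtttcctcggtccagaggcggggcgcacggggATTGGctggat
Rpa2: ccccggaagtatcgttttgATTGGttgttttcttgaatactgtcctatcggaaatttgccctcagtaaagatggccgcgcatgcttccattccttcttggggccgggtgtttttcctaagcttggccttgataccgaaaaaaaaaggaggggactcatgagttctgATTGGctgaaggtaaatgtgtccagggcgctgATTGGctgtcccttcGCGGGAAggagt
Dbf4: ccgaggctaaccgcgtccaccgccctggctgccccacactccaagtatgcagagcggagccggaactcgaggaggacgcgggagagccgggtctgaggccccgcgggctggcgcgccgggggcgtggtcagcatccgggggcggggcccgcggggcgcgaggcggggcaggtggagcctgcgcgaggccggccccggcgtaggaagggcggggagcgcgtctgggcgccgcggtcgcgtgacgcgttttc

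The libraries held 23650572 to 27680649 estimated counts, of which the 45 genes took 0.858% to 0.944%. CPM, the unit of level used throughout, relates a gene's counts to the scaled total of its library. Ctnnb1, the deleted gene, was at 896.5 ± 12.8 and 828.4 ± 21.3 CPM in parental cells with DMSO and CHIR99021 and at 9.35 ± 1.94 and 9.06 ± 0.510 CPM in the knock-out (mean ± SD, n = 2, as for all groups below). Markers of embryonic stem cells (8 genes, none at 0 in a group) summed to 5890 CPM in parental cells with DMSO, 5470 to 5600 with CHIR99021, 5460 to 5620 in the knock-out with DMSO and 5210 to 5260 with CHIR99021, the last below all other libraries. Markers of fibroblasts, the usual feeder cells, summed to 1.33 to 2.42 CPM, with 3 or 4 of 6 genes at 0 in a group. Parental cells with CHIR99021 stood apart in markers of the primitive streak and mesoderm (6 genes, none at 0 in a group), at 42.7 to 44.6 CPM in sum against 2.97 to 4.02 CPM in the other libraries, and in neural markers (6 genes, 1 at 0 in every group), at 49.4 to 50.1 against 84.2 to 106 CPM. Its primitive endoderm markers (6 genes, none at 0 in a group) were lower in sum too, at 11.7 to 13.3 against 20.6 to 26.2 CPM, but not as a set. With CHIR99021 in parental cells Sox7 went from 14.1 to 4.745 CPM and Gata4 from 5.008 to 4.734 CPM. Pdgfra went up from 1.1 to 1.972 CPM and Gata6 from 0.4672 to 0.7594 CPM. Of the 4 markers tested, 1 was called higher and 1 lower there. Trophoblast markers ran from 37 to 50 CPM in sum over all libraries, most of it Tfap2c, and they did not move as a set either. With CHIR99021 in parental cells Tfap2c went from 45.64 to 36.15 CPM and Cdx2 from 0.1059 to 1.569 CPM. Of the 4 trophoblast markers tested, 1 was called higher and 1 lower there. The part of these other cell states in the values below was not tested, and in bulk RNA fewer cells of a kind and less RNA per cell cannot be told apart.

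Per length of annotated exon, the helicase subunits, the clamp and Rrm2 were the most abundant of the 45 messages. In parental cells with DMSO, Mcm3 stood highest at 281 ± 3.16 CPM per kb, followed by Mcm5 at 236 ± 4.37, Pcna at 225 ± 1.64 and Rrm2 at 223 ± 3.99, where the libraries of Pcna and Rrm2 overlap. Mcm7 (173), Mcm2 (158), Mcm6 (155), Mcm4 (123) and the loading factor Cdt1 (105) followed in CPM per kb. The level of Pcna leaves out Pcna-ps2, a near-identical pseudogene with 47796 counts over all libraries beside 60938 of Pcna. Reads may be split between them, so the place of Pcna in this order is uncertain. The least abundant were Orc4, at 12.44 and 11.66 CPM per kb in its 2 libraries, Gins3 at 12.68 and 12.56, and the kinase Cdc7 at 18.8 ± 0.664 CPM per kb. The order Mcm3, Mcm5, Mcm7, Mcm2, Mcm6, Mcm4 was also that of the knock-out with CHIR99021, at 243, 195, 150, 136, 129 and 110 CPM per kb. In the same groups Gins1 went from rank 23 to rank 30 of the 45.

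**Figure D1:**
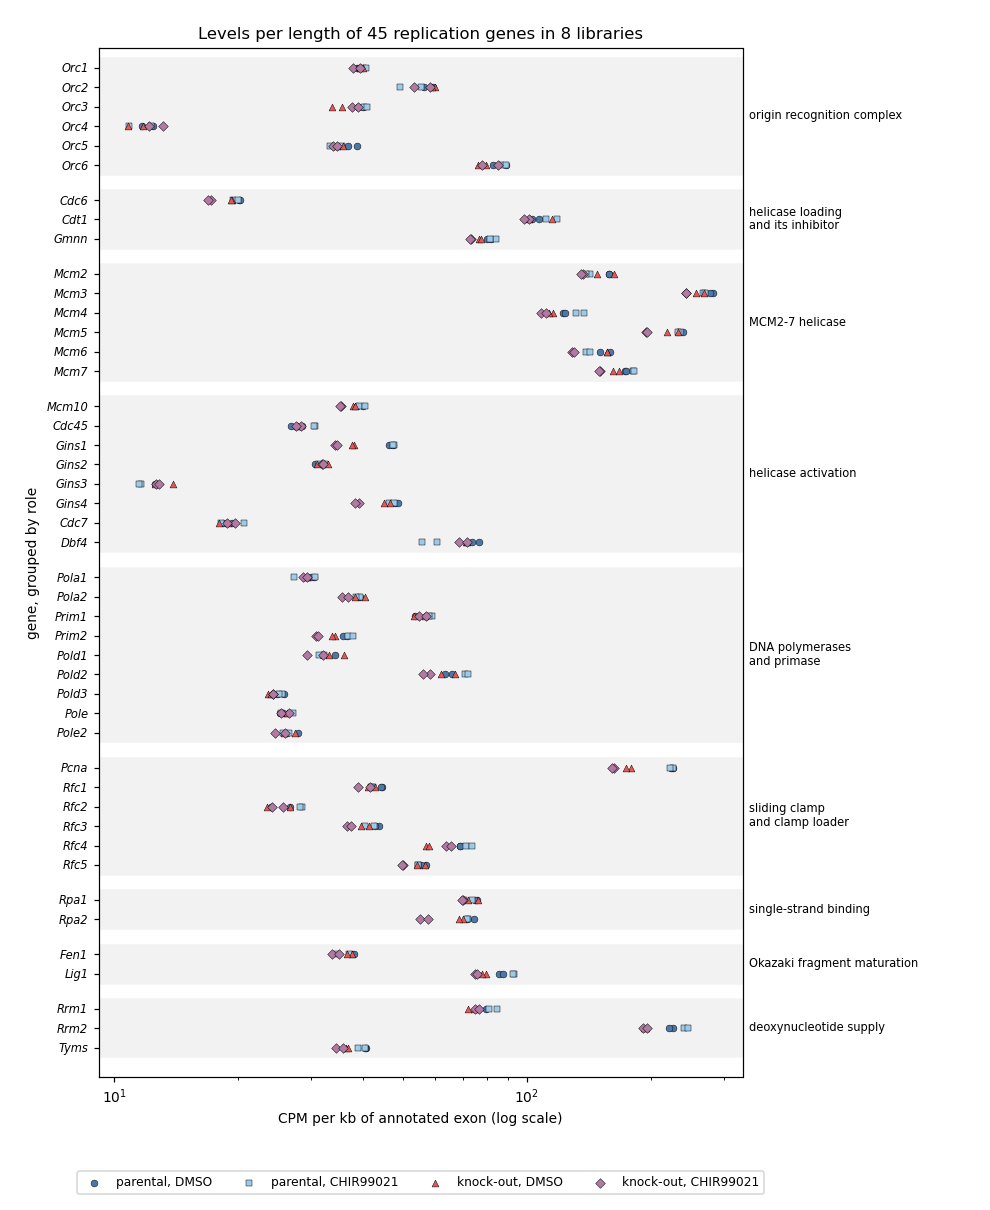
Level of each of the 45 genes in CPM per kb of annotated exon (log axis), with a point for each of the 8 libraries and genes grouped by role. In parental cells with DMSO the levels run from 11.66 and 12.44 for Orc4 to 281 for Mcm3, and the points of a gene lie close together beside the distances between genes. Pcna is shown without the counts of its pseudogene Pcna-ps2.

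In sum the 45 genes were at their lowest in the knock-out with CHIR99021. Their summed level was 9586 and 9492 CPM in parental cells with DMSO, 9423 and 9535 CPM in parental cells with CHIR99021, 9231 and 8939 CPM in the knock-out with DMSO, and 8431 and 8510 CPM in the knock-out with CHIR99021. The last 2 libraries lay below all others, the knock-out libraries with DMSO came next, and the parental libraries of both media overlapped. Much of the sum is the MCM2-7 helicase, at 3843.8 and 3820.7 CPM in parental cells with DMSO and 3266.1 and 3282.3 CPM in the knock-out with CHIR99021. The origin recognition complex, in contrast, ran from 643.25 to 698.64 CPM, with both lines overlapping in CHIR99021 and the knock-out (660.23 and 664.89 CPM) below parental cells (698.64 and 675.64 CPM) in DMSO. The stem cell markers above were also lowest in sum in the knock-out with CHIR99021, and their part in the sum of the 45 was not tested.

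**Figure D2:**
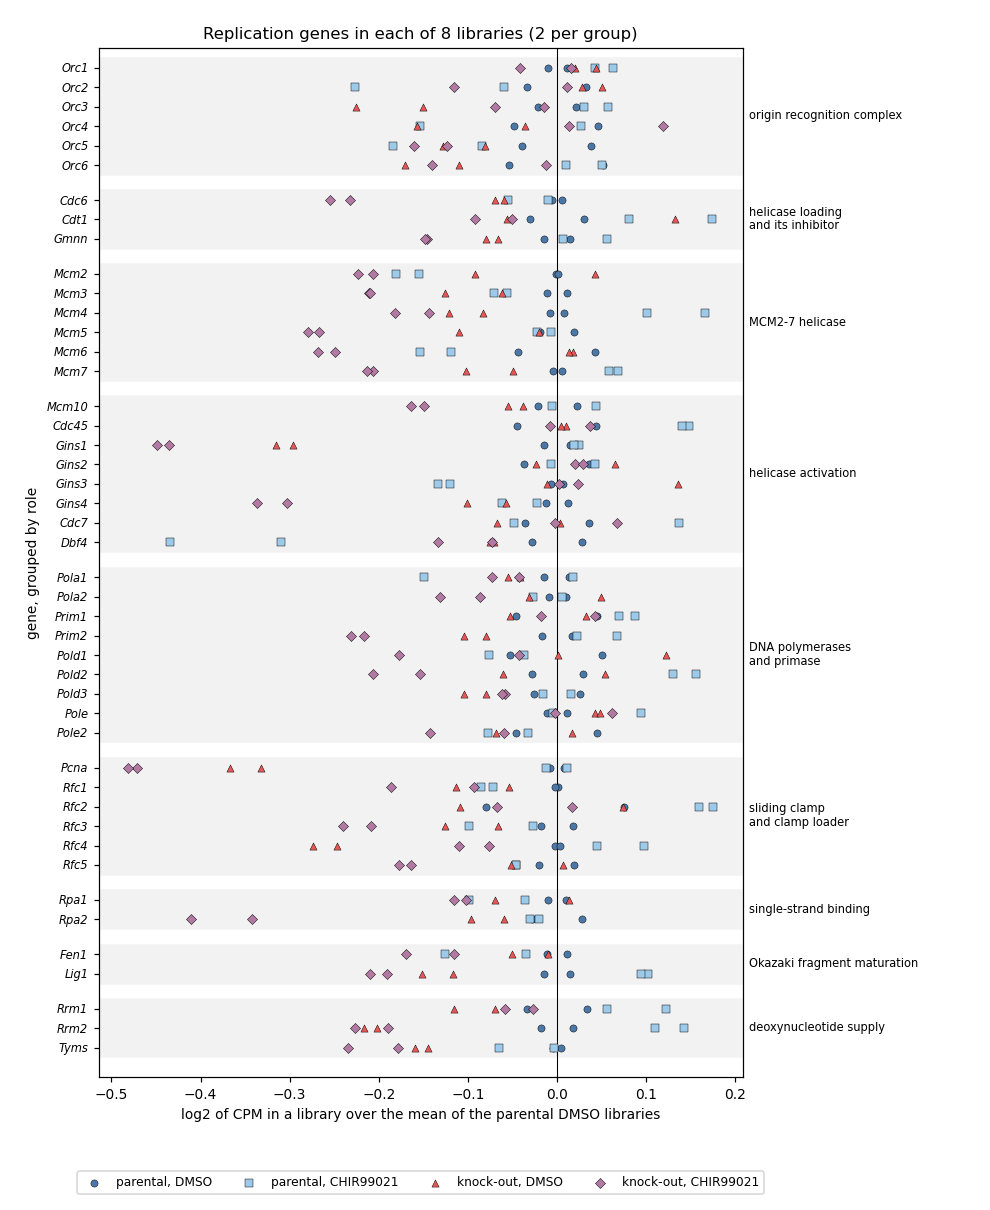
log2 of the CPM of each gene in each library over the mean of the parental DMSO libraries, with genes grouped by role and marks by group. The knock-out libraries with CHIR99021 lie left of 0 for Pcna, Gins1, Rpa2 and the MCM2-7 genes, and the parental libraries with CHIR99021 lie far left for Dbf4.

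Each comparison was tested over all 17739 genes with edgeR's quasi-likelihood test, and a gene is called where its adjusted p is under 0.05. The knock-out was first compared with the parental line, which asks how the genes stand without β-catenin. In DMSO, 6 of the 45 were lower in the knock-out (Orc3, Gins1, Pcna, Rfc4, Lig1 and Rrm2) and 0 higher, against 3.62% of all genes lower and 3.13% higher. In CHIR99021, 22 of 45 were lower and 1, Dbf4, was higher, against 12.5% of all genes lower and 11.2% higher. Both shares in CHIR99021 were larger among the 5493 genes within the range of the 45 in mean level (33.9 to 800 CPM). Of these, 1152 (21%) were lower and 773 (14.1%) higher, and in DMSO 7.41% were lower. The median log2 fold change of the 45 was -0.065 in DMSO and -0.125 in CHIR99021, beside 0.003 and 0.0007 for all genes tested and -0.0203 and -0.0371 for the genes in that range. These comparisons share no library with each other, while each shares libraries with the comparisons of CHIR99021 below. Of the genes called, 5 were lower in both media (Gins1, Pcna, Rfc4, Lig1, Rrm2), 1 was called lower in DMSO alone (Orc3) and 17 in CHIR99021 alone; such a difference in calls is not a tested difference between media, which the interaction gives below.

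**Figure D3:**
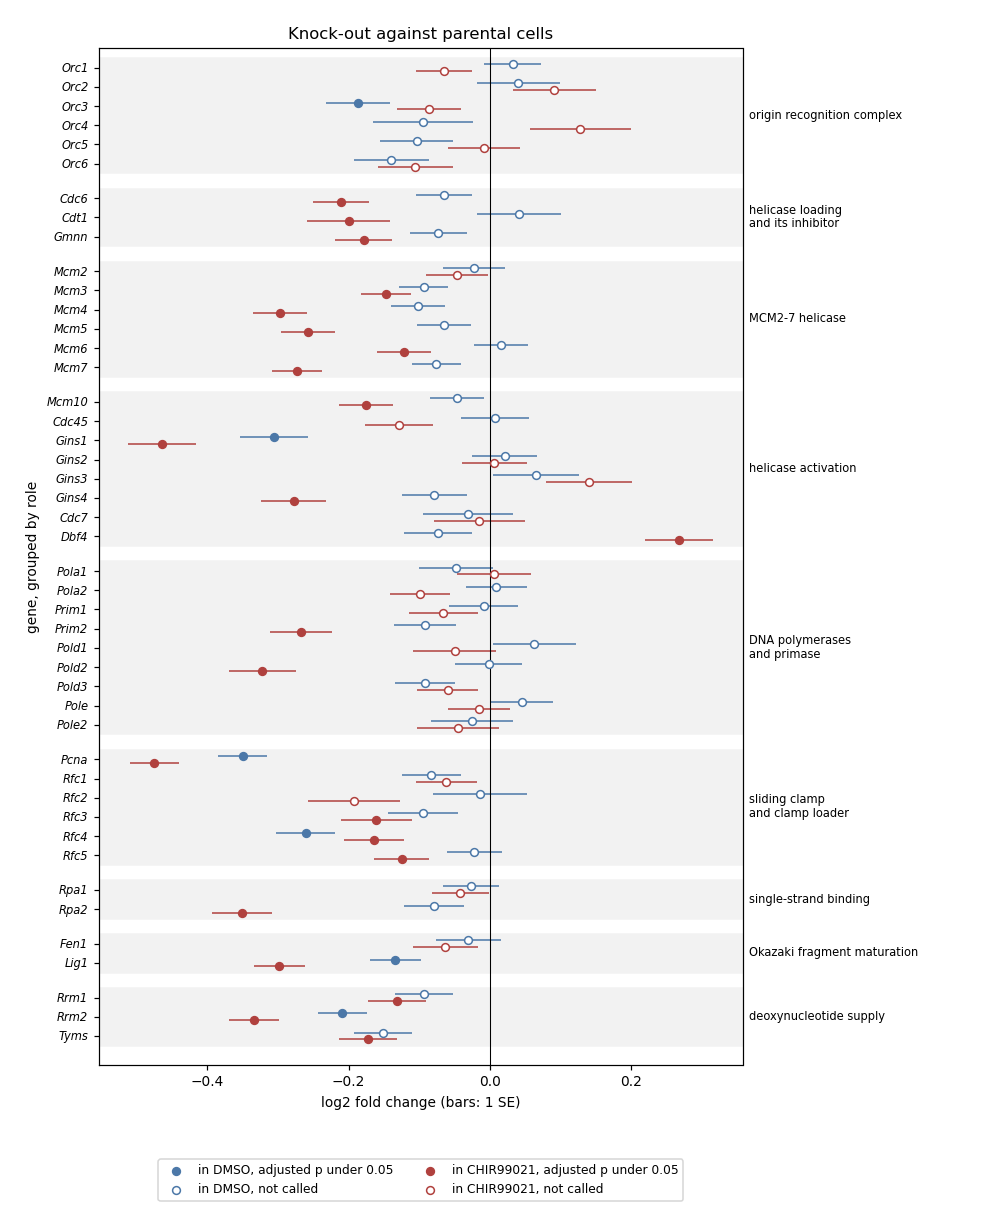
log2 fold change of knock-out against parental cells in DMSO (blue) and in CHIR99021 (red) for the 45 genes by role, with 1 SE, filled where the adjusted p is under 0.05. In CHIR99021, 22 genes are filled left of 0 and Dbf4 is filled right of it; in DMSO 6 are filled, all left of 0.

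CHIR99021 against DMSO within each line asks what GSK3 inhibition does with and without β-catenin. In parental cells 2 of the 45 were higher with CHIR99021 (Mcm4, Rrm2) and 3 lower (Mcm2, Mcm6, Dbf4), against 9.10% of all genes higher and 10.3% lower. Among genes in the same range of level 11.9% were higher and 15.7% lower. The median of the 45 was -0.001 on the log2 scale, that of all genes 0.004. In the knock-out 1 was higher (Rfc4) and 8 were lower (Cdc6, Mcm2, Mcm5, Mcm6, Mcm7, Gins4, Rfc5, Rpa2), against 2.88% of all genes higher and 4.18% lower, or 8.56% lower among genes in the same range of level; the median of the 45 was -0.074 and that of all genes -0.0028. Of these, Mcm2 and Mcm6 were lower in both lines. The difference between the lines in the response, the interaction, was tested itself. Here 3 of the 45 responded more negatively in the knock-out (Mcm7, Pold2, Rpa2) and 1 more positively (Dbf4), against 2.91% and 3.22% of all genes. Among genes in the same range of level these shares were 4.26% and 5.08%. In all 5 comparisons 20 of the 45 genes were called in none, and calls were small, from 0.122 to 0.475 in absolute log2 fold change. In the 43 called tests between groups, the interaction aside, the libraries of the groups compared did not overlap. The same held in tests that were not called, such as Orc1, Gins1 and Cdc6 for CHIR99021 in parental cells. The share over all genes was not counted. Calls rest on the same libraries, so the lack of overlap adds no support to them.

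**Figure D4:**
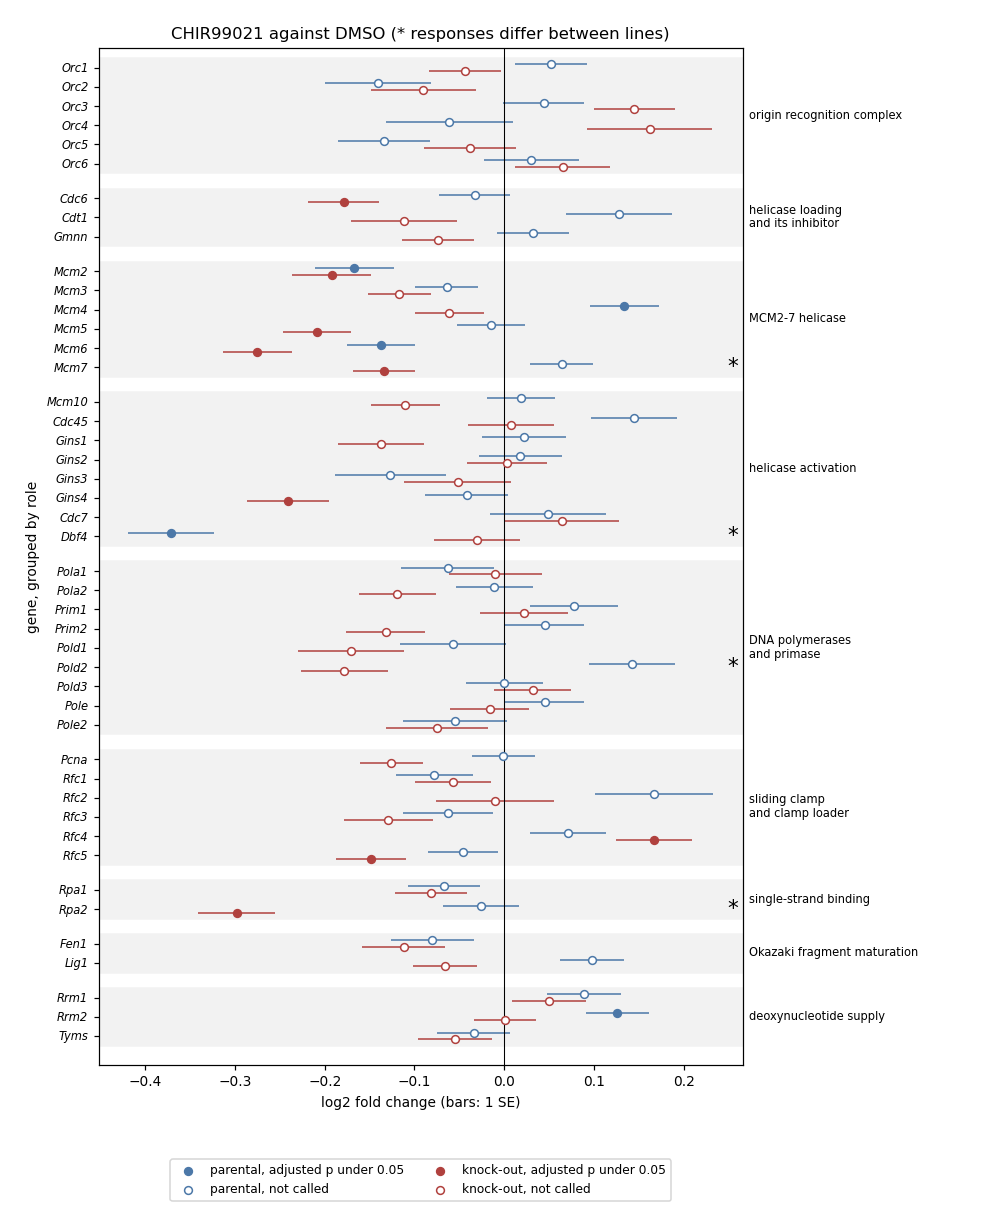
log2 fold change of CHIR99021 against DMSO in parental (blue) and knock-out cells (red) for the 45 genes by role, with 1 SE, filled where the adjusted p is under 0.05; stars mark the 4 genes whose response differed between the lines. Dbf4 lies at -0.37 for the parental line and -0.03 for the knock-out, and Rpa2 at -0.03 and -0.30.

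The origin recognition complex, which marks origins throughout the cycle, had 1 call over the 5 comparisons. This was Orc3, lower in the knock-out in DMSO. Orc3 (ENSMUSG00000040044, chromosome 4, 34570796 to 34614944, GRCm38) was at 89.42 and 92.07 CPM in parental cells with DMSO and at 77.62 and 81.79 CPM in the knock-out, which gave -0.19 ± 0.05 on the log2 scale (mean difference ± SE, as below; adjusted p = 0.0337). The call was lost with DESeq2 (adjusted p = 0.0696) and when any of 7 libraries was left out, with an adjusted p of up to 0.185 without parental DMSO replicate 2. In CHIR99021 the parental libraries were at 92.67 and 94.42 CPM and the knock-out libraries at 86.45 and 89.82 CPM, which did not pass (adjusted p = 0.199). Orc1, the subunit that comes and goes with the cell cycle, stayed between 114.1 and 122.6 CPM in all 8 libraries. Between groups, the other subunits differed at most by the 0.16 ± 0.07 of Orc4 for CHIR99021 in the knock-out (adjusted p = 0.195).

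Among the loading factors and their inhibitor, all 3 were lower in the knock-out than in parental cells in CHIR99021 and none was called in DMSO. Cdc6 (ENSMUSG00000017499, chromosome 11, 98907801 to 98923940), the ATPase that helps close the ring on DNA, was at 92.71 and 95.59 CPM in parental cells with CHIR99021 and 81.94 and 80.71 CPM in the knock-out. With DMSO it was at 95.91 and 96.68 CPM in parental cells and 92.37 and 91.78 CPM in the knock-out. The knock-out libraries with CHIR99021 thus lay below all others. Between the lines in CHIR99021 the log2 fold change was -0.21 ± 0.04 (adjusted p = 0.00317), and that of CHIR99021 within the knock-out was -0.18 ± 0.04 (adjusted p = 0.0245), a call lost with DESeq2 (0.0615) and without any knock-out library (up to 0.175). Cdt1, which brings the MCM ring to origins, gave -0.20 ± 0.06 between the lines in CHIR99021 (adjusted p = 0.0309), lost without parental CHIR99021 replicate 1 (0.202) and without either knock-out CHIR99021 library (0.0869 and 0.166). Geminin (Gmnn), which holds Cdt1 inactive after licensing, gave -0.18 ± 0.04 (adjusted p = 0.00814), lost without parental CHIR99021 replicate 1 (0.0784) or either knock-out CHIR99021 library (0.0548 and 0.0693). Activator and inhibitor of loading were lower together in this comparison. Cdt1 overlaps Gm20388 on the same strand, which had 24398 counts over the libraries beside 48108 of Cdt1. Whether reads were shared between them was not tested.

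In the MCM2-7 helicase, the ring that unwinds DNA, 5 of 6 subunits were lower in the knock-out in CHIR99021 and 0 of 6 in DMSO. Mcm4 was at 438.4 and 443.4 CPM in parental cells with DMSO, 472.9 and 494.5 CPM with CHIR99021, 416.1 and 405.4 CPM in the knock-out with DMSO, and 388.6 and 399.0 CPM with CHIR99021. It was the highest in parental cells with CHIR99021 and the lowest in the knock-out with CHIR99021, with no overlap among the 4 groups. Its log2 fold change between the lines in CHIR99021 was -0.30 ± 0.04 (adjusted p = 0.000209). Its rise with CHIR99021 in parental cells, 0.13 ± 0.04 (adjusted p = 0.029), was lost without either DMSO library of that line (0.166 and 0.115) and without its CHIR99021 replicate 2 (0.168).

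Mcm5 (ENSMUSG00000005410, chromosome 8, 75109569 to 75128439) and Mcm7 (ENSMUSG00000029730, chromosome 5, 138164583 to 138172422) were both lower with CHIR99021 in the knock-out and were not called for it in parental cells. Mcm5 was at 805.3 and 826.7 CPM in parental cells with DMSO, 812.1 and 803.1 with CHIR99021, 804.7 and 755.8 in the knock-out with DMSO, and 672.5 and 677.9 with CHIR99021. The knock-out with CHIR99021 lay below the other 6 libraries, and with DMSO the knock-out libraries lay just below the parental ones, which did not pass (-0.065, adjusted p = 0.371). CHIR99021 changed Mcm5 in the knock-out by -0.21 ± 0.04 (adjusted p = 0.0101), lost without knock-out DMSO replicate 1 (0.0564) or either CHIR99021 library (0.0808 and 0.0683), and in parental cells by -0.015 (adjusted p = 0.834). The difference between these responses did not pass (-0.19 ± 0.05, adjusted p = 0.0608, but 0.0151 to 0.0468 under 4 alternatives, DESeq2 among them), while that between the lines in CHIR99021 did (-0.26 ± 0.04, adjusted p = 0.00062). Mcm7 was at 511.8 and 515.3 CPM in parental cells with DMSO, 534.8 and 538.5 with CHIR99021, 496.0 and 478.3 in the knock-out with DMSO, and 445.1 and 442.9 with CHIR99021. Parental libraries were higher with CHIR99021 and knock-out libraries lower. The fall in the knock-out was -0.13 ± 0.04 (adjusted p = 0.0418), lost under 8 alternatives with up to 0.198, and the knock-out stood -0.27 ± 0.04 below parental cells in CHIR99021 (adjusted p = 0.000205). The difference in response passed at -0.20 ± 0.05 (adjusted p = 0.037), though leaving out any of 7 libraries raised it to between 0.086 and 0.152. Mcm7 overlaps Cops6 and Ap4m1 on the opposite strand, with 24816 and 10862 counts over the libraries against 101399 of Mcm7, so that some reads may be shared if strand was not used in counting.

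Mcm2 and Mcm6 were lower with CHIR99021 in both lines. Mcm6 (ENSMUSG00000026355, chromosome 1, 128331590 to 128359664) was at 697.6 and 657.4 CPM in parental cells with DMSO and 608.9 and 623.7 with CHIR99021, and at 686.1 and 683.9 CPM in the knock-out with DMSO and 562.6 and 570.0 with CHIR99021. The lines overlapped in DMSO, and each was lower with CHIR99021. CHIR99021 gave -0.14 ± 0.04 in parental cells (adjusted p = 0.0272) and -0.28 ± 0.04 in the knock-out (adjusted p = 0.0021), and the difference between them did not pass (adjusted p = 0.171). The call in the knock-out held under every alternative tried, whereas that in parental cells was lost without parental DMSO replicate 1 (0.241) and without either parental CHIR99021 library (0.16 and 0.0588). Between the lines in CHIR99021 Mcm6 gave -0.12 ± 0.04 (adjusted p = 0.038), lost under 6 alternatives with up to 0.172. Mcm2 was at 532.3 and 533.0 CPM in parental cells with DMSO, 478.6 and 470.1 with CHIR99021, 548.7 and 499.9 in the knock-out with DMSO, and 461.8 and 456.2 with CHIR99021. Its log2 fold changes were -0.17 ± 0.04 (adjusted p = 0.0216) and -0.19 ± 0.04 (adjusted p = 0.0263), each lost without some of the libraries compared (0.0753 to 0.106 in parental cells, 0.117 to 0.156 in the knock-out). Mcm2 was the 1 subunit of the ring not called between the lines in CHIR99021 (-0.05 ± 0.04, adjusted p = 0.483). Mcm3, the most abundant, was 810.9 and 819.0 CPM in parental cells with CHIR99021 and 735.6 and 736.2 CPM in the knock-out (-0.15 ± 0.04, adjusted p = 0.0105), a call lost without either knock-out CHIR99021 library (0.0644 and 0.0655).

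Of the 8 genes that turn the loaded ring into a helicase, Gins1 had the largest fall between the lines, and Dbf4 had the largest response to CHIR99021. Gins1 (ENSMUSG00000027454, chromosome 2, 150905400 to 150931280), a subunit of the 4-part GINS complex, was at 50.44 and 51.49 CPM in parental cells with DMSO and 51.83 and 51.64 with CHIR99021, and at 41.51 and 40.97 CPM in the knock-out with DMSO and 37.33 and 37.69 with CHIR99021. All 4 knock-out libraries lay below all 4 parental libraries. Between the lines Gins1 differed by -0.31 ± 0.05 in DMSO (adjusted p = 0.00412) and -0.46 ± 0.05 in CHIR99021 (adjusted p = 4.89e-05), a change of -27.5%. The other GINS genes did not share that pattern. Gins4 was at 62.64 and 64.35 CPM in parental cells with CHIR99021 and at 62.79 and 60.92 in the knock-out with DMSO, and dropped to 52.96 and 51.75 CPM in the knock-out with CHIR99021. This gave Gins4 -0.28 ± 0.05 between the lines in CHIR99021 (adjusted p = 0.00134) and -0.24 ± 0.05 for CHIR99021 in the knock-out (adjusted p = 0.0126; 0.0712 to 0.116 without knock-out DMSO replicate 1 or either CHIR99021 library). Gins2 ran from 119.6 to 128.3 CPM and Gins3 from 31.15 to 37.56 CPM, and neither was called in any comparison. Gins2 shares 2758 identical bases with Gse1 on the opposite strand, which had 25163 counts beside 25488 of Gins2. Some reads may be shared if strand was not used in counting.

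Dbf4 (ENSMUSG00000002297, chromosome 5, 8396973 to 8422716), the activating partner of the Cdc7 kinase, was at 187.1 and 179.9 CPM in parental cells with DMSO and 135.8 and 148.1 CPM with CHIR99021. In the knock-out it was at 174.2 and 174.7 CPM with DMSO and 167.3 and 174.4 with CHIR99021. The parental libraries with CHIR99021 stood alone, below the other 6. CHIR99021 changed Dbf4 by -22.7% in parental cells, a log2 fold change of -0.37 ± 0.05 (adjusted p = 0.000262), and by -0.03 ± 0.05 in the knock-out (adjusted p = 0.764). The difference between the responses was 0.34 ± 0.07 (adjusted p = 0.0127), which rose to 0.0523, 0.0583 and 0.0655 without parental DMSO replicate 1, parental CHIR99021 replicate 1 and knock-out CHIR99021 replicate 2. Dbf4 was also the 1 gene of the 45 that was higher in the knock-out in CHIR99021 (0.27 ± 0.05, adjusted p = 0.0022), and that call and the fall in parental cells held under every alternative. Cdc7, the kinase that Dbf4 activates, was between 57.97 and 66.77 CPM in all libraries and was called nowhere. Cdc45 was highest in parental cells with CHIR99021, at 65.66 and 65.27 CPM against 57.43 to 61.05 CPM elsewhere, and did not pass there (0.15 ± 0.05, adjusted p = 0.0594). Mcm10, which helps start unwinding, was lower in the knock-out in CHIR99021 (-0.18 ± 0.04, adjusted p = 0.00692; 0.0563 and 0.0619 without replicate 2 of the parental or the knock-out CHIR99021 group).

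The polymerases and primase changed little, with 2 of 9 genes called and 1 of these in the interaction too. Pold2 (ENSMUSG00000020471, chromosome 11, 5872180 to 5878292), an accessory subunit of polymerase δ, was at 108.7 and 104.4 CPM in parental cells with DMSO, 116.5 and 118.6 with CHIR99021, 110.5 and 102.1 in the knock-out with DMSO, and 95.72 and 92.29 with CHIR99021. The lines overlapped in DMSO and parted in CHIR99021. Between the lines in CHIR99021 the log2 fold change was -0.32 ± 0.05 (adjusted p = 0.000688), and 0.00 ± 0.05 in DMSO (adjusted p = 0.987). Neither response alone passed (0.14 ± 0.05, adjusted p = 0.0637 in parental cells and -0.18 ± 0.05, adjusted p = 0.052 in the knock-out), while their difference did (-0.32 ± 0.07, adjusted p = 0.0187; 0.0568 to 0.104 when any of 5 libraries was left out). Prim2, the large subunit of primase, was at 72.67 and 74.97 CPM in parental cells with CHIR99021 and 60.98 and 61.59 in the knock-out (-0.27 ± 0.04, adjusted p = 0.00126), a call that every alternative kept. Its partner Prim1 was not called (-0.07 ± 0.05, adjusted p = 0.373). The catalytic subunits of the 3 replicative polymerases, Pola1, Pold1 and Pole, had log2 fold changes between -0.06 and 0.06 in both comparisons of the lines, with none called anywhere.

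The clamp itself gave the largest difference between the lines. Pcna (ENSMUSG00000027342, chromosome 2, 132249162 to 132253314) encodes the ring that tethers polymerases to DNA. It was at 343.1 and 339.6 CPM in parental cells with DMSO, 344.0 and 338.4 with CHIR99021, 271.1 and 264.7 in the knock-out with DMSO, and 246.3 and 244.6 with CHIR99021. The parental groups overlapped, and every knock-out library lay below every parental library. Pcna differed between the lines by -0.35 ± 0.04 in DMSO (adjusted p = 0.00036) and -0.475 ± 0.04 in CHIR99021 (adjusted p = 3.71e-06), changes of -21.5% and -28.1%. The processed pseudogene Pcna-ps2, 99.2% identical to Pcna over 781 bases, held 47796 counts beside 60938 of Pcna, so reads may be split between them. Summed, the pair was at 609.4 and 602.2, 609.1 and 622, 477.4 and 474.1, and 433.5 and 442.1 CPM in the same order of groups, and the log2 fold changes of the sum were -0.35 and -0.49.

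Pcna and Gins1 both lie on the distal part of chromosome 2, and genes there were lower in the knock-out as a whole. Of 437 tested genes from 100 Mb on with a mean of at least 10 CPM, 90.8% had a negative log2 fold change in DMSO and 85.8% in CHIR99021, with a median of -0.22 in each medium. The other 8899 genes had medians of -0.01 and -0.03, and genes of chromosome 2 before 100 Mb had -0.02 and -0.04. The response to CHIR99021 showed no such stretch, with medians of -0.02 in both lines. Within 5 Mb of Pcna, 51 genes had a median of -0.18 in DMSO and -0.24 in CHIR99021, so that Pcna lay -0.16 and -0.24 beyond its neighbours. Within 5 Mb of Gins1, 72 genes had medians of -0.21 and -0.26, and Gins1 lay -0.10 and -0.20 beyond them. The part of this regional difference in the values of Pcna and Gins1 was not tested. No member among the other 43 lies in that stretch. With its genes left out of the fit, an alternative chosen after seeing the data, 4 of 43 members were lower in the knock-out in DMSO and 21 of 43 in CHIR99021. In that fit 832 genes were called in either direction in DMSO and 3885 in CHIR99021, against 1198 and 4200 in the main fit.

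**Figure D5:**
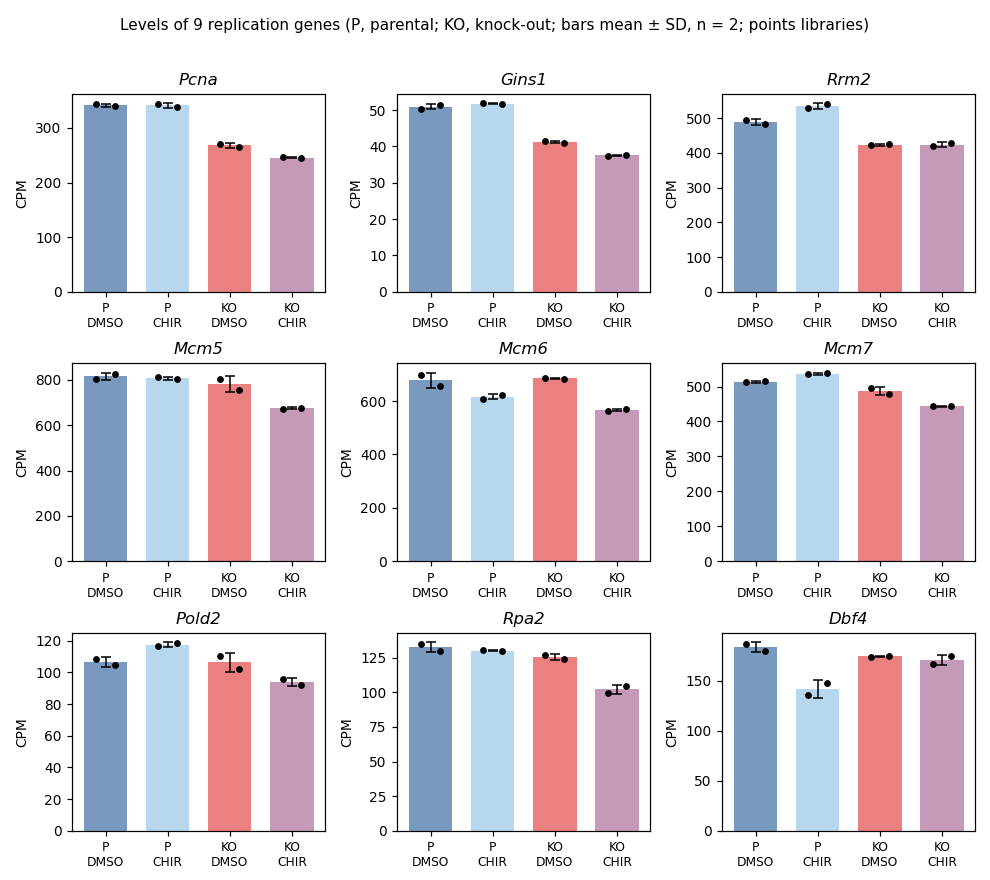
CPM of 9 genes by group (P, parental; KO, knock-out), with bars for the mean, error bars for the SD (n = 2) and points for libraries, on axes from 0. Pcna and Gins1 are lower in both knock-out groups, Mcm5, Rpa2 and Pold2 in the knock-out with CHIR99021, and Dbf4 in parental cells with CHIR99021.

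The clamp loader, which opens the ring and sets it on DNA, was lower in part. Rfc4 (ENSMUSG00000022881, chromosome 16, 23113943 to 23127737) was at 89.9 and 90.25 CPM in parental cells with DMSO, 92.9 and 96.34 with CHIR99021, 74.5 and 75.88 in the knock-out with DMSO, and 83.46 and 85.42 with CHIR99021. It was lower in the knock-out in both media, and the knock-out was higher with CHIR99021 than with DMSO. The log2 fold changes between the lines were -0.26 ± 0.04 in DMSO (adjusted p = 0.00491), which every alternative kept, and -0.16 ± 0.04 in CHIR99021 (adjusted p = 0.0152), lost with DESeq2 (0.0663) and without parental CHIR99021 replicate 2 (0.104) or either knock-out CHIR99021 library (0.107 and 0.0674). The rise with CHIR99021 in the knock-out, 0.17 ± 0.04 (adjusted p = 0.0368), was the only call upward in that comparison among the 45, and it was lost with DESeq2 (0.0917) and without any of 7 libraries (0.0523 to 0.22). Rfc4 overlaps Eif4a2 on the opposite strand, which had 119680 counts beside 17604 of Rfc4, so its values are uncertain if strand was not used. Rfc3 (-0.16 ± 0.05, adjusted p = 0.0386) and Rfc5 (-0.12 ± 0.04, adjusted p = 0.0386) were lower in the knock-out in CHIR99021, each losing the call under 8 alternatives, DESeq2 (0.178 and 0.082) among them. Rfc5 was lower with CHIR99021 in the knock-out too (-0.15 ± 0.04, adjusted p = 0.0438), lost likewise under 8. Rfc5 shares 499 identical bases with Wsb2 on the opposite strand, which had 17681 counts beside 35865 of Rfc5. Its values are thus uncertain as well if strand was not used. Rfc1, the large subunit, was not called. Rfc2 missed the threshold between the lines in CHIR99021 with a larger value than these (-0.19, adjusted p = 0.0556), and passed under 6 alternatives, DESeq2 (0.0431) among them.

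Of the single-strand binding proteins, which coat unwound DNA, Rpa2 changed and Rpa1 did not pass. Rpa2 (ENSMUSG00000028884, chromosome 4, 132768332 to 132778752) was at 135.2 and 130.0 CPM in parental cells with DMSO, 130.7 and 129.8 with CHIR99021, 127.2 and 124.0 in the knock-out with DMSO, and 99.73 and 104.6 with CHIR99021. The knock-out libraries with CHIR99021 stood apart below the other 6. CHIR99021 changed Rpa2 by -0.30 ± 0.04 in the knock-out (adjusted p = 0.00269) and -0.03 ± 0.04 in parental cells (adjusted p = 0.731), and the difference was -0.27 ± 0.06 (adjusted p = 0.0218; 0.0592 to 0.097 when any of 5 libraries was left out). The call in the knock-out held under every alternative, as did that between the lines in CHIR99021 (-0.35 ± 0.04, adjusted p = 0.000155). Rpa1, the large subunit of the same complex, ran from 357.7 to 391.3 CPM.

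In Okazaki fragment maturation, the ligase was lower in the knock-out and the flap nuclease was not called. Lig1, DNA ligase 1, which seals nicks, was at 301.3 and 307.4 CPM in parental cells with DMSO, 326.7 and 324.8 with CHIR99021, 280.7 and 274.0 in the knock-out with DMSO, and 263.2 and 266.7 with CHIR99021. The 4 groups did not overlap. Lig1 differed by -0.30 ± 0.04 in CHIR99021 (adjusted p = 0.000134), which every alternative kept, and -0.13 ± 0.04 in DMSO (adjusted p = 0.0481), which leaving out any of the 8 libraries ended (0.0673 to 0.244). Fen1, which trims the flaps of lagging-strand fragments, ran from 81.62 to 92.53 CPM.

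All 3 genes of deoxynucleotide supply were lower in the knock-out in CHIR99021. Rrm2 (ENSMUSG00000020649, chromosome 12, 24708241 to 24714146), the subunit of ribonucleotide reductase that limits its activity in S phase, was at 496.3 and 483.9 CPM in parental cells with DMSO, 528.9 and 540.9 with CHIR99021, 421.7 and 426.2 in the knock-out with DMSO, and 418.9 and 429.8 with CHIR99021. The knock-out groups overlapped each other and lay below both parental groups. The log2 fold change was -0.21 ± 0.04 in DMSO (adjusted p = 0.00611; 0.0795 without parental DMSO replicate 1) and -0.33 ± 0.04 in CHIR99021 (adjusted p = 5.88e-05). Rrm2 rose with CHIR99021 in parental cells by 0.13 ± 0.04 (adjusted p = 0.0285), lost without any of those 4 libraries (0.0641 to 0.196) or knock-out CHIR99021 replicate 2 (0.0511), and gave 0.00 ± 0.04 in the knock-out (adjusted p = 0.99). Rrm1, the large subunit, was lower in the knock-out in CHIR99021 by a smaller amount (-0.13 ± 0.04, adjusted p = 0.0393), lost under 7 alternatives with up to 0.212. Tyms, thymidylate synthase, was at 123.0 and 128.4 CPM in parental cells and 109.4 and 113.7 in the knock-out with CHIR99021 (-0.17 ± 0.04, adjusted p = 0.0113; 0.0896 and 0.102 without parental CHIR99021 replicate 2 or knock-out CHIR99021 replicate 1).

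Set beside the promoter letters, the 21 genes with an E2F form had 11 lower in the knock-out in CHIR99021 and a median log2 fold change of -0.122, and the 16 without had 6 lower, 1 higher and a median of -0.103. For the longer E2F forms alone, 7 of 10 genes with 1 and 10 of 27 without were lower, with medians of -0.154 and -0.086. The 8 genes with no window had 5 lower and a median of -0.23. The stretches shown above span the same range: Mcm5, with 2 overlapping E2F forms, at -0.26, Pold2, with a CCAAT box and no E2F form, at -0.32, and Dbf4, with no match, at 0.27.

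Genes that work beside the 45 were taken from 7 lists, whose counts stand beside the 3.62% (DMSO) and 12.5% (CHIR99021) of all genes that were lower in the knock-out. Of 15 calls downward in DMSO over the lists, 9 were genes of the distal part of chromosome 2. Of 25 accessory factors of the replisome and of origins 2 were lower in the knock-out in DMSO and 9 in CHIR99021, with 0 higher in each and medians of -0.093 and -0.146. Rnaseh2a, a subunit of the enzyme that removes RNA from DNA, was at 102.9 ± 4.83 CPM in the parental and 82.83 ± 1.81 CPM in the knock-out line with CHIR99021 (-0.31 ± 0.05, adjusted p = 0.00064), and Mcm8, a helicase of repair, gave -0.37 ± 0.07 (adjusted p = 0.00349). Clspn, which links fork and checkpoint, was lower with CHIR99021 in both lines, by -0.25 ± 0.04 (adjusted p = 0.00235) in parental cells and -0.195 ± 0.04 (adjusted p = 0.0245) in the knock-out. Of 10 further deoxynucleotide enzymes 3 were lower in DMSO and 6 in CHIR99021, again with 0 higher. Dut, which clears dUTP, was at 199 ± 5.45 and 154.7 ± 7.78 CPM in DMSO and 196.8 ± 6.95 and 134.9 ± 4.52 CPM in CHIR99021 in parental and knock-out cells (-0.36 ± 0.05, adjusted p = 0.00173 and -0.55 ± 0.05, adjusted p = 1.56e-05). Dut, Samhd1 and Mcm8 lie on the distal part of chromosome 2 described above, and Rnaseh2a does not.

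Of the 6 genes of replication-coupled chromatin assembly, 2 were lower in DMSO and 3 in CHIR99021. Chaf1b, a subunit of the histone chaperone CAF-1 that PCNA recruits, was at 67.26 ± 0.873 CPM in parental cells with DMSO, 80.11 ± 0.0649 with CHIR99021, 61.4 ± 3.81 in the knock-out with DMSO and 58.32 ± 1.71 with CHIR99021. It rose with CHIR99021 in parental cells (0.25 ± 0.05, adjusted p = 0.0056), and its response differed in the knock-out (-0.33 ± 0.07, adjusted p = 0.0242). Of 18 genes of G2 and mitosis 6 were lower in the knock-out in DMSO, 5 of them on distal chromosome 2, and in CHIR99021 9 were lower, 5 of them there, and 1 was higher. With CHIR99021, 7 of the 18 were lower in the parental line and 6 in the knock-out, with 0 higher. Of all genes, 10.3% and 4.18% were lower and 9.10% and 2.88% higher in these comparisons. Of 7 genes of licensing and geminin turnover 1 was lower in the knock-out in CHIR99021 and 0 in DMSO.

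The regulators of entry into S phase moved in both directions. E2f1, an activating E2F that lies on distal chromosome 2, was at 48.02 ± 1.27 CPM in the parental and 38.68 ± 2.66 CPM in the knock-out line with CHIR99021 (-0.31 ± 0.06, adjusted p = 0.00445), and Rbl2, an RB family repressor, was higher there (0.47 ± 0.07, adjusted p = 0.000958). In all, 3 of the 13 genes of the E2F and RB families were lower and 2 higher in that comparison, and 2 were lower in DMSO. E2f8 was lower with CHIR99021 in both lines (-0.55 ± 0.08, adjusted p = 0.000379 and -0.58 ± 0.08, adjusted p = 0.0016). Ccne1, cyclin E1, which drives S-phase entry with CDK2, was at 216.7 ± 1.80 and 197.1 ± 6.96 CPM in parental cells with DMSO and CHIR99021 and 204.2 ± 8.10 and 155.2 ± 1.09 CPM in the knock-out. Its responses were -0.14 ± 0.04 (adjusted p = 0.0438) and -0.40 ± 0.04 (adjusted p = 0.000633), and their difference passed (-0.26 ± 0.06, adjusted p = 0.0283).

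Cdkn1a and Cdkn1c, which encode CDK inhibitors, changed more with CHIR99021 than any of the 45. The product of Cdkn1a also binds PCNA. Cdkn1a went from 25.73 ± 0.873 to 82.24 ± 4.13 CPM with CHIR99021 in parental cells and from 28.56 ± 0.311 to 37.03 ± 1.68 CPM in the knock-out. The log2 fold changes were 1.68 ± 0.06 and 0.375 ± 0.06, with a difference of -1.30 ± 0.09 (adjusted p = 7.01e-06). Cdkn1c fell with CHIR99021 in both lines, by 1.70 and 0.66 on the log2 scale (adjusted p = 4.24e-08 and 0.000324). Myc, a driver of growth, was at 63.96 ± 1.15 and 49.39 ± 2.24 CPM in parental cells and 82.61 ± 8.27 and 42.2 ± 1.27 CPM in the knock-out with DMSO and CHIR99021, so that its response was larger in the knock-out (-0.60 ± 0.10, adjusted p = 0.00356). Of the 8 S-phase cyclins, CDK2 and inhibitors 4 were lower in the knock-out in CHIR99021 and 2 higher, and in DMSO 0 were lower and 1 higher.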

How the data were processed

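Polyadenylated RNA was sequenced from total RNA with a stranded kit, per the labels' protocols, in 8 libraries of 4 groups. The authors deposited expected counts, the estimated reads per gene that kallisto gives, on GRCm38.p4, per the submitters' processing notes. The version, transcript set, summing to genes and strand setting are not given in the sources used here. Estimated counts were rounded. The filter filterByExpr of edgeR 4.0.16, run by group (minimum count 10, total 15), left 17739 genes. Libraries were scaled by TMM (factors 0.9857 to 1.0181), and the quasi-likelihood model had 1 mean per group over all 8 libraries, with 4 residual degrees of freedom. The 5 comparisons used the 2-sided F test with Benjamini-Hochberg adjustment over all genes at 0.05. The SE was taken as the size of the log2 fold change over the square root of F. The common biological coefficient of variation was 0.0532, and the variance of replicates was 3.26 to 4.86 times that of counting alone. An exact permutation of 2 libraries against 2 cannot go below 0.333, so none was used. The procedure was tested on simulated data.

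The 45 genes, the 7 lists (87 genes) and the markers were chosen with earlier results of these data known. All 45 may be named; full statistics went to those with the smallest adjusted p and the highest and lowest change of each role, and in other lists to up to 4 called genes. Exon length per kb came from GENCODE M21 basic protein-coding transcripts, copies from BLAST 2.17.0, promoters from RefSeq. Alternatives were DESeq2 1.42.0, RLE size factors, a looser filter (1 read in all) and a tighter one (at least 5 CPM in 2 or more libraries), a replicate block, and leaving out each library, where the remaining library is taken to vary as those of other groups do. After seeing the data, Pcna was summed with Pcna-ps2 and the genes of chromosome 2 from 100 Mb on were left out.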

Additional observations from a re-analysis of the deposited data

Results flagged for a closer look

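The response to CHIR99021 differed between the lines, by the interaction test of edgeR, for 4 of the 45 genes. Of all genes in the same range of mean level, 4.26% were called lower and 5.08% higher in that test. On the log2 scale, knock-out minus parental, the difference was -0.198 for Mcm7, 0.34 for Dbf4, -0.319 for Pold2 and -0.272 for Rpa2. Dbf4 is the 1 of these in which the parental response was the larger. Among the other genes named as values, the difference was -0.258 for Ccne1, -1.302 for Cdkn1a, -0.596 for Myc and -4.109 for Axin2, a Wnt target whose log2 fold change was 3.29 for the parental line and -0.815 for the knock-out.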

How the results depend on the processing

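Of the calls among the 45 genes, those that held under all 13 other settings were 1 of 5 for CHIR99021 in parental cells (Dbf4), 2 of 9 in the knock-out (Mcm6, Rpa2), 3 of 6 between the lines in DMSO (Gins1, Pcna, Rfc4), 13 of 23 in CHIR99021 (Cdc6, Mcm4, Mcm5, Mcm7, Gins1, Gins4, Dbf4, Prim2, Pold2, Pcna, Rpa2, Lig1, Rrm2) and 0 of 4 in the interaction; no call changed sign. With 2 libraries a group, leaving out 1 is a large step. In parental cells, CHIR99021 changed 3441 genes, and 2205 with DESeq2; without a library it was 2057 to 3507 genes, 0 to 3 members higher and 1 to 3 lower, and the stricter filter gave 5 members higher. In the knock-out it changed 1252 genes, 2167 with no filter and 307 to 1237 without a library; members higher were 0 with DESeq2, 2 with the stricter filter and 0 to 1 without a library, and members lower 2 to 9. Between the lines in DMSO 1198 genes were called, 795 with DESeq2, 2064 with no filter and 357 to 1047 without a library, with 3 to 5 members lower. In CHIR99021 4200 genes were called, 2709 with DESeq2 and 2509 to 4353 without a library, with 13 to 23 members lower; the count was 13 without either knock-out CHIR99021 library. In the interaction 1087 genes were called, 1990 with no filter and 605 to 1143 without a library; members lower were 5 with DESeq2, 6 with no filter, 5 with the stricter filter and 0 to 6 without a library, and members higher 0 to 1. The cause of these shifts was not tested. Same-numbered libraries showed little shared deviation over the genes tested (6 correlations from -0.056 to 0.104). With 1 difference per group, such correlations cannot exclude that the numbers pair the libraries. With a replicate block 5, 9, 5, 23 and 4 members were called in the 5 comparisons. Mcm7 (CHIR99021 in the knock-out, adjusted p = 0.0506) and Lig1 (DMSO, 0.0638) then lost the call.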
